A study of Rattus norvegicus with 325 samples.

Results

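Transcripts of 9 genes, 5 matrix metalloproteinases (Mmp2, Mmp3, Mmp9, Mmp14 and Mmp15) and the 4 tissue inhibitors of metalloproteinases (Timp1 to Timp4), were followed in aging rat skeletal muscle. They were taken by symbol from tables of read counts that listed 17315 distinct symbols, and each had a single line there. The libraries came from untreated male Sprague Dawley rats, an outbred strain with no engineered allele, whose muscles were taken at 6, 9, 12, 18, 21, 24 or 27 months of age. Each of the 325 libraries was bulk RNA of 1 muscle, either the diaphragm, the gastrocnemius, the soleus or the tibialis anterior, and each of the 28 combinations of muscle and age held 9 to 13 libraries. All rats of an age group were dissected on the same day, so the age of a group cannot be told apart from its day of collection. The labels do not tie libraries to animals across muscles.

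Library totals ranged from 17555294 to 85316329 counts, with a median of 31879679 counts. The muscle labels were checked with myosin genes. The slow myosin gene Myh7 reached, as its median over libraries, 47510 CPM in the soleus (CPM being counts-per-million of a library's TMM-scaled total) and 2204 CPM in the tibialis anterior, and the fast myosin gene Myh4 had medians of 14.24 CPM and 77730 CPM in the same muscles. The sample numbers in the labels fell into 3 series, of which the first held the gastrocnemius and no other muscle. The third held all 12-month libraries of the other muscles and 1 library of each of those muscles at 21 months. A difference between the gastrocnemius and another muscle, or between 12 months and another age within the other 3 muscles, therefore cannot be told apart from the series.

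Matrix metalloproteinases are zinc-dependent enzymes that cut collagens and other proteins of the extracellular matrix, the network around muscle fibres through which they pass force to the tendon. Most are secreted as inactive precursors, and Mmp14 and Mmp15 are held in the cell membrane. Tissue inhibitors of metalloproteinases bind the active site of these enzymes. Timp2 has a second role, since together with Mmp14 it presents the precursor of Mmp2 for activation at the cell surface. Timp3 stays bound to the matrix, Timp1 is known as a gene induced by injury and inflammation, and Timp4 is an inhibitor with high levels in heart and skeletal muscle.

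The sequences before the start sites of Timp1, Timp2 and Timp4 are given because these inhibitor genes passed the test between 6 and 27 months. They are the 250 bases before the start site as listed by RefSeq on the GRCr8 assembly, 5′ to 3′ on the strand of the gene, which is the minus strand for each. Such a sequence was found for 6 of the 9 genes, Mmp3, Mmp15 and all 4 inhibitors, and no sequence of Mmp2, Mmp9 or Mmp14 was used. Capitals mark matches to the motifs named after the sequences. Timp1 is at chrX:3771123-3771372, Timp2 at chr10:104089215-104089464 and Timp4 at chr4:149985205-149985454.
Timp1: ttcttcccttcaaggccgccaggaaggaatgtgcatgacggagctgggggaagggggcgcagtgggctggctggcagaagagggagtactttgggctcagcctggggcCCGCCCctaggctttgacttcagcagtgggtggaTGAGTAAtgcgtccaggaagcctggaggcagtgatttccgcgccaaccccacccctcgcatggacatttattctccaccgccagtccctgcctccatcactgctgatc
Timp2: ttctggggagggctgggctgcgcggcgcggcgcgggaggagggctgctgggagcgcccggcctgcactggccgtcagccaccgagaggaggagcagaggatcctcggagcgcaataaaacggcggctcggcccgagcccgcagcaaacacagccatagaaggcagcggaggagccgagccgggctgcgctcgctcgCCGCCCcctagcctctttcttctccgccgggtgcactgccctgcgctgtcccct
Timp4: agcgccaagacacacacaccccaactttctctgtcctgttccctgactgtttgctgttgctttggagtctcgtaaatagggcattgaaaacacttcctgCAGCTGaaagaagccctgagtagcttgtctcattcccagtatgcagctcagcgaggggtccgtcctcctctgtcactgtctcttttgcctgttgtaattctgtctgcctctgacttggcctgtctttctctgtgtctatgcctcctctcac

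Of 6 motifs searched on both strands, the Timp1 sequence held the AP-1-like letters TGAGTAA, which begin 108 bases before the start, and a GC box (GGGCGG) that begins 142 bases before it. The AP-1-like letters were also present in the Mmp3 sequence and were found in 2.38% of 33469 rat promoter sequences of the same length, and the GC box in 30.5% of them. The Timp2 sequence held a GC box 54 bases before the start. The Timp4 sequence held the E-box CAGCTG, present in 12% of all promoters, and no GC box. The canonical AP-1 letters TGANTCA (6.34% of promoters) and the TATA box letters TATAAA (12.9%) were found in Mmp3 only among the 6 sequences, and the Runx letters TGTGGT (14.5%) in none of them. None of the marked matches overlap. A match is a run of letters and was not tested as a binding site. The share of G and C was 61.2% in the Timp1, 72.0% in the Timp2 and 50.8% in the Timp4 sequence, and the median over all promoters was 51.2%.

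To determine which of these genes changed with age, each age was compared with 6 months within each muscle. A gene was called when its adjusted p was under 0.05 and its change was over 1.5-fold, which is 0.58 on the log2 scale. At 27 months Timp1 was called higher in the tibialis anterior and the gastrocnemius, Timp2 higher in the tibialis anterior, and Timp4 lower in the gastrocnemius. Mmp14 was called lower in the diaphragm and higher in the soleus, and Mmp9 higher in the diaphragm. Mmp3, Mmp15, Mmp2 and Timp3 were called in no muscle at that age. Thus 2 of 8 tested members were called for the diaphragm, where 7.52% of all tested genes were called, 2 of 7 for the gastrocnemius (22.8%), 1 of 7 for the soleus (15.0%) and 2 of 8 for the tibialis anterior (27.6%). Mmp9 and Mmp3 lay near the filter on low counts, and without them the numbers were 1, 2, 1 and 2 of 7. The members that did not pass the filter on low counts were Mmp3 in the diaphragm, Mmp9 in the tibialis anterior, and both in the gastrocnemius and the soleus. The median change of the 4 inhibitors at 27 months was -0.07 for the diaphragm, 0.22 for the gastrocnemius, 0.37 for the soleus and 0.55 for the tibialis anterior on the log2 scale, and that of Mmp2, Mmp14 and Mmp15 was -0.50, -0.05, 0.31 and 0.13, beside medians over all genes from 0.0 to 0.04. With Bonferroni adjustment over all genes the calls of Mmp9 in the diaphragm and Mmp14 in the soleus were lost. Taking all ages together, 3, 2, 1 and 2 members were called at 1 age or more in the 4 muscles in the same order, beside 9.49%, 26.5%, 17.9% and 29.5% of all tested genes. The 3 of the diaphragm included Mmp9.

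**Figure D1:**
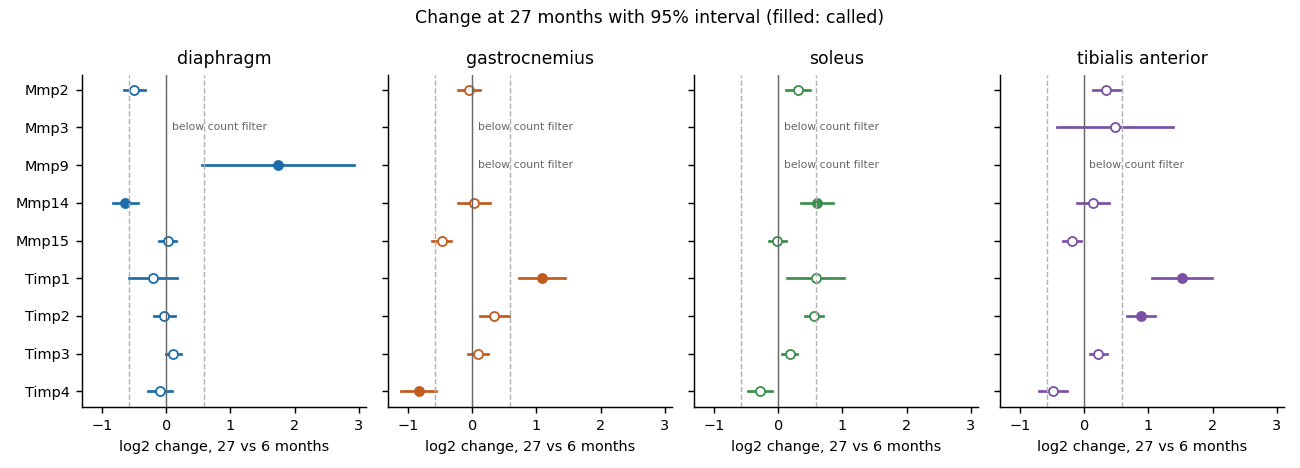
Change of each gene from 6 to 27 months in each muscle on the log2 scale (points), with 95% intervals (lines). Filled points were called and dashed lines mark 1.5-fold in either direction. Timp1 lies at 1.53 in the tibialis anterior and 1.09 in the gastrocnemius, and at -0.21 in the diaphragm.

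Among the proteases, Mmp14 moved in opposite directions in the diaphragm and the soleus. Mmp14 is the membrane-bound collagenase that activates Mmp2. In the diaphragm it had 19.5, 22.1 and 30.4 CPM (lowest, median and highest library) at 6 months and 10.5, 16.1 and 20.5 CPM at 27 months. Of the 12 old diaphragms, 11 lay below the lowest young one, and the change was -0.64 ± 0.10 (log2, SE; adjusted p = 1.8e-07). The call was lost at -0.58 without replicate 4 of 27 months, without replicate 0 of 6 months, or with sample quality weights. At no earlier age was Mmp14 called in the diaphragm, and its changes there were between -0.06 and -0.25.

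In the soleus Mmp14 had 13.1, 23.6 and 28.6 CPM at 6 months and 19.5, 36.2 and 54.5 CPM at 27 months, lowest, median and highest. The groups overlapped, with 8 of 12 old libraries above the highest young one, and the change was 0.61 ± 0.12 (adjusted p = 2.2e-05). This change was close to the 1.5-fold threshold. The call was lost, at values from 0.54 to 0.58, without any 1 of 8 libraries, which were replicates 0, 3, 5, 6, 7 and 8 of 27 months and replicates 4 and 11 of 6 months. It was also lost with sample quality weights (0.57). In the gastrocnemius and the tibialis anterior the changes were 0.03 ± 0.13 and 0.13 ± 0.13, with 95% intervals from -0.22 to 0.28 and from -0.12 to 0.38, and the sign in the gastrocnemius turned when replicate 0 or 9 of 27 months was left out (-0.03 and -0.02).

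Mmp2, the secreted gelatinase that Mmp14 activates, fell in the diaphragm well before 27 months. Its level there was 121.8, 146.6 and 177.4 CPM at 6 months (lowest, median and highest). The medians were 141.6 CPM at 9 months, 107.4 at 12, 118.9 at 18, 100 at 21, 97.0 at 24 and 109.6 at 27 months. At 21 and at 24 months all 12 libraries lay below the lowest young one. The share of all genes with such groups was not counted. At 27 months the range was 67.6 to 136.7 CPM, and all 12 libraries lay below the young median. The only called age was 21 months (-0.60 ± 0.08, adjusted p = 1.0e-07), where 1.68% of all genes were called, and that call was lost with DESeq2 (-0.58) and with sample quality weights (-0.55). At 12 and 18 months the changes were -0.40 and -0.28, at 24 months -0.57 and at 27 months -0.50, each with an adjusted p under the threshold and a size below 1.5-fold.

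In the soleus Mmp2 had a median of 197.9 CPM at 6 months, 160.3 CPM at 18 months and 229.1 CPM at 27 months. At 27 months 8 of 12 libraries lay above the highest young one, and the change was 0.31 ± 0.10 (adjusted p = 0.00483). In the tibialis anterior the medians were 70.4 CPM at 6 months, 59.6 CPM at 21 months and 96.0 CPM at 27 months, with a change of 0.34 ± 0.11 (adjusted p = 0.0039). Neither change reached 1.5-fold, except that the second did when libraries were scaled to their total counts (0.66). In the gastrocnemius the median went from 111.2 CPM at 6 months to 87.7 CPM at 21 months and 104.7 CPM at 27 months. The change there was -0.44 ± 0.09 at 21 months (adjusted p = 3.6e-04) and -0.05 ± 0.09 at 27 months, where total-count scaling turned its sign (0.23).

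**Figure D2:**
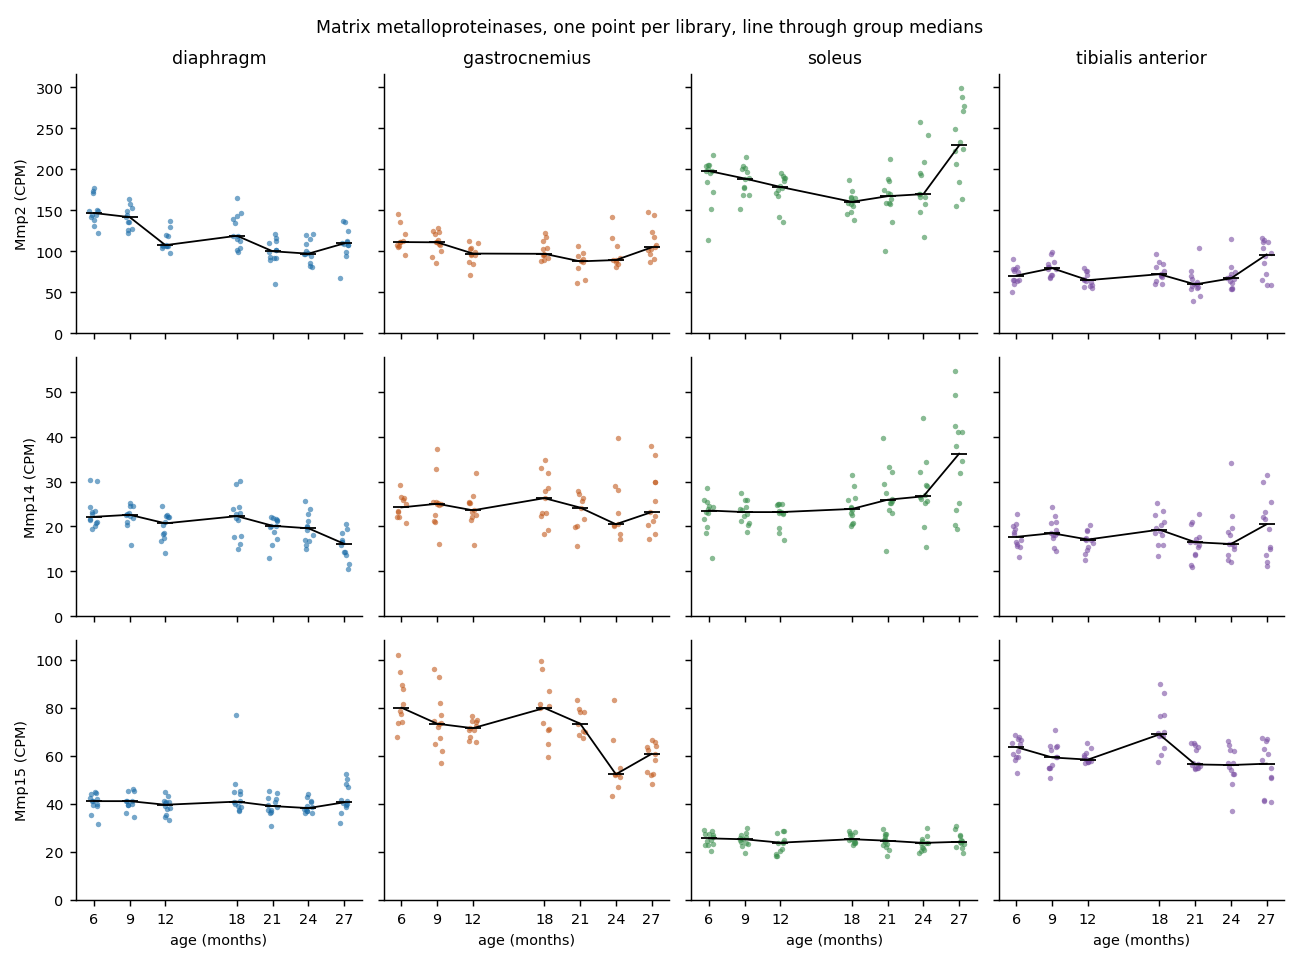
Level of Mmp2, Mmp14 and Mmp15 in CPM (vertical axes, linear and shared within a row) against age in months (horizontal axes) in each muscle, with 1 point per library, moved slightly sideways for clarity, and a line through the group medians. Mmp2 and Mmp14 in the soleus are highest at 27 months, with medians of 229.1 and 36.2 CPM, and Mmp15 in the gastrocnemius drops between 21 and 24 months.

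Mmp15, like Mmp14 a membrane-bound member of the family, was lower in the old gastrocnemius. Its level was 67.8, 79.9 and 102.1 CPM at 6 months and 48.0, 60.7 and 66.3 CPM at 27 months (lowest, median and highest), so that all 11 old libraries lay below all 10 young ones. Among the 9 genes this was the only case of groups of 6 and 27 months that did not overlap. The share of all genes with such groups was not counted, so the separation is not read as particular to Mmp15. In this comparison 22.8% of all genes were called, a different measure. The changes were -0.57 ± 0.08 at 24 months and -0.48 ± 0.08 at 27 months (adjusted p = 1.1e-08 and 1.8e-07), both under 1.5-fold and thus not called. With total-count scaling the second was -0.20. In the tibialis anterior the change at 27 months was -0.20 ± 0.07 and was of the opposite sign with total-count scaling (0.12). In the diaphragm and the soleus the changes were 0.02 and -0.02 with intervals from -0.11 to 0.15 and from -0.15 to 0.12.

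Mmp9, a gelatinase abundant in neutrophils and macrophages, was near the limit of detection. In the diaphragm its counts were 0, 4.5 and 17 at 6 months and 5, 9 and 94 at 27 months, and the sums over 12 libraries were 62 and 265. The levels at 27 months ran from 0.129 to 3.15 CPM, with 5 of 12 libraries above the highest young one. The filter asked for 0.358 counts-per-million of the library total without TMM scaling. This was reached by 1 of 12 libraries at 6 months and 5 of 12 at 27 months, among 28 diaphragms of all ages. Mmp9 thus passed the filter through the older groups. The change was 1.74 ± 0.60 (adjusted p = 0.0138), or 1.63 ± 0.56 with no gene filtered out (adjusted p = 0.0164), and it was 1.63 ± 0.60 at 18 months (adjusted p = 0.0378), where 2.25% of all genes were called. It was not called at 21 months (1.21 ± 0.67, adjusted p = 0.277) or at 24 months (1.74 ± 0.62, adjusted p = 0.0556). Without replicate 10 of 6 months, a library with no Mmp9 count, the change at 27 months was 1.18 and not called (adjusted p = 0.086). With edgeR's quasi-likelihood test, the 18-month change was 1.38 and not called (adjusted p = 0.0658), and with sample quality weights it was 1.46 (adjusted p = 0.0503).

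In the other muscles Mmp9 was below the filter. Its summed counts at 6 and 27 months were 5 and 58 for the soleus, 20 and 65 for the tibialis anterior, and 10 and 33 for the gastrocnemius, in 10 to 12 libraries a group. Without the filter the changes were 2.11 ± 0.57 in the soleus (adjusted p = 0.00161), 1.68 ± 0.52 in the tibialis anterior (adjusted p = 0.00352) and 0.75 ± 0.53 in the gastrocnemius (adjusted p = 0.249). At so few counts these fitted changes depend on the small constant added before the logarithm. Neutrophil marker genes were also low, with summed levels of 5.75 to 14.7 CPM in the young and 8.77 to 16.7 CPM in the old diaphragm. Of the 10 neutrophil markers, 5 were tested in the diaphragm and 3 of these were called higher. The granule gene Elane was at 0 in all young and all old diaphragms, and the granule gene Ltf in all old ones. Over all muscles and ages Elane had no count in 313 and Ltf in 285 of 325 libraries. The part of neutrophils in the Mmp9 change was not tested.

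Mmp3, the stromelysin that can activate other metalloproteinases, had at most 30 counts in any library. In the tibialis anterior, where it was tested, its summed counts were 71 at 6 months and 73 at 27 months in 12 libraries each, and the change was 0.48 ± 0.46 with an interval from -0.43 to 1.38. A change was not detectable at this depth. In the diaphragm 7 of 12 young and 6 of 12 old libraries had no Mmp3 count.

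Among the inhibitors, Timp1 rose in both fast limb muscles. In the tibialis anterior it had 1.20, 1.74 and 3.06 CPM at 6 months and 2.06, 5.03 and 8.45 CPM at 27 months (lowest, median and highest). Of the 12 old libraries, 10 lay above the highest young one and all above the young median. The change was 1.53 ± 0.24, a 2.88-fold difference (adjusted p = 2.5e-08). It was already called at 21 months (0.79 ± 0.25, adjusted p = 0.0123) and at 24 months (0.87 ± 0.25, adjusted p = 0.00189), where 6.47% and 14.5% of all genes were called. Both earlier calls were lost with Bonferroni adjustment, as was that of the gastrocnemius at 24 months.

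In the gastrocnemius Timp1 had 2.03, 2.87 and 3.73 CPM at 6 months and 3.68, 5.29 and 11.1 CPM at 27 months. Of the 11 old libraries, 10 lay above the highest of the 10 young ones. The change was 1.09 ± 0.18, a 2.13-fold difference (adjusted p = 5.6e-07), after 0.78 ± 0.20 at 24 months (adjusted p = 6.9e-04; 18.8% of all genes called). Leaving out any 1 library of 6 or 27 months gave changes between 0.96 and 1.15 in the gastrocnemius and between 1.43 and 1.62 in the tibialis anterior, all called.

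In the soleus, where Timp1 was highest in young rats, it had 6.07, 8.87 and 14.1 CPM at 6 months and 7.80, 11.2 and 27.8 CPM at 27 months. The change was 0.58 ± 0.22 (adjusted p = 0.0243) and lay just below 1.5-fold. It was called with edgeR's test (0.68), DESeq2 (0.67), sample quality weights (0.63) or total-count scaling (0.73). It was also called, at 0.59 to 0.65, without any 1 of 10 libraries, which were replicates 2, 7, 8, 9, 10 and 11 of 27 months and 1, 2, 6 and 8 of 6 months. In the diaphragm Timp1 had medians of 4.83 CPM at 6 months and 4.62 CPM at 27 months, and the change was -0.21 ± 0.19 with an interval from -0.59 to 0.17. Single diaphragms reached 13.4, 16.4 and 18.2 CPM at 12, 18 and 24 months, well above the medians of 4.62, 5.01 and 4.23 CPM of their groups.

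Timp2 had an adjusted p under 0.05 at 27 months in the 3 limb muscles, with a call in 1 of them. For the tibialis anterior the values were 27.3, 33.4 and 39.5 CPM at 6 months and 33.6, 64.5 and 82.0 CPM at 27 months (lowest, median and highest). In 11 of 12 old libraries the level was above the highest young one, and the change was 0.88 ± 0.11 (adjusted p = 1.0e-10), after 0.31 ± 0.11 at 24 months and 0.00 ± 0.11 at 21 months. In the soleus it had 37.5, 45.1 and 57.2 CPM at 6 months and 44.8, 66.9 and 82.6 CPM at 27 months, with 9 of 12 old libraries above the highest young one. The change was 0.56 ± 0.07 (adjusted p = 1.1e-09) and just under 1.5-fold. It was called with total-count scaling (0.70), or without replicate 1 (0.61) or 9 (0.59) of 27 months or replicate 5 of 6 months (0.59).

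In the gastrocnemius the Timp2 medians were 67.9 and 86.3 CPM at 6 and 27 months, and the change was 0.34 ± 0.11 (adjusted p = 0.00697), called with total-count scaling only (0.63). In the diaphragm the medians were 44.0 and 46.7 CPM, and the change was -0.04 ± 0.08 with an interval from -0.20 to 0.13, of the opposite sign but near 0 with total-count scaling (0.0031) or without replicate 0 of 6 months (0.0021).

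**Figure D3:**
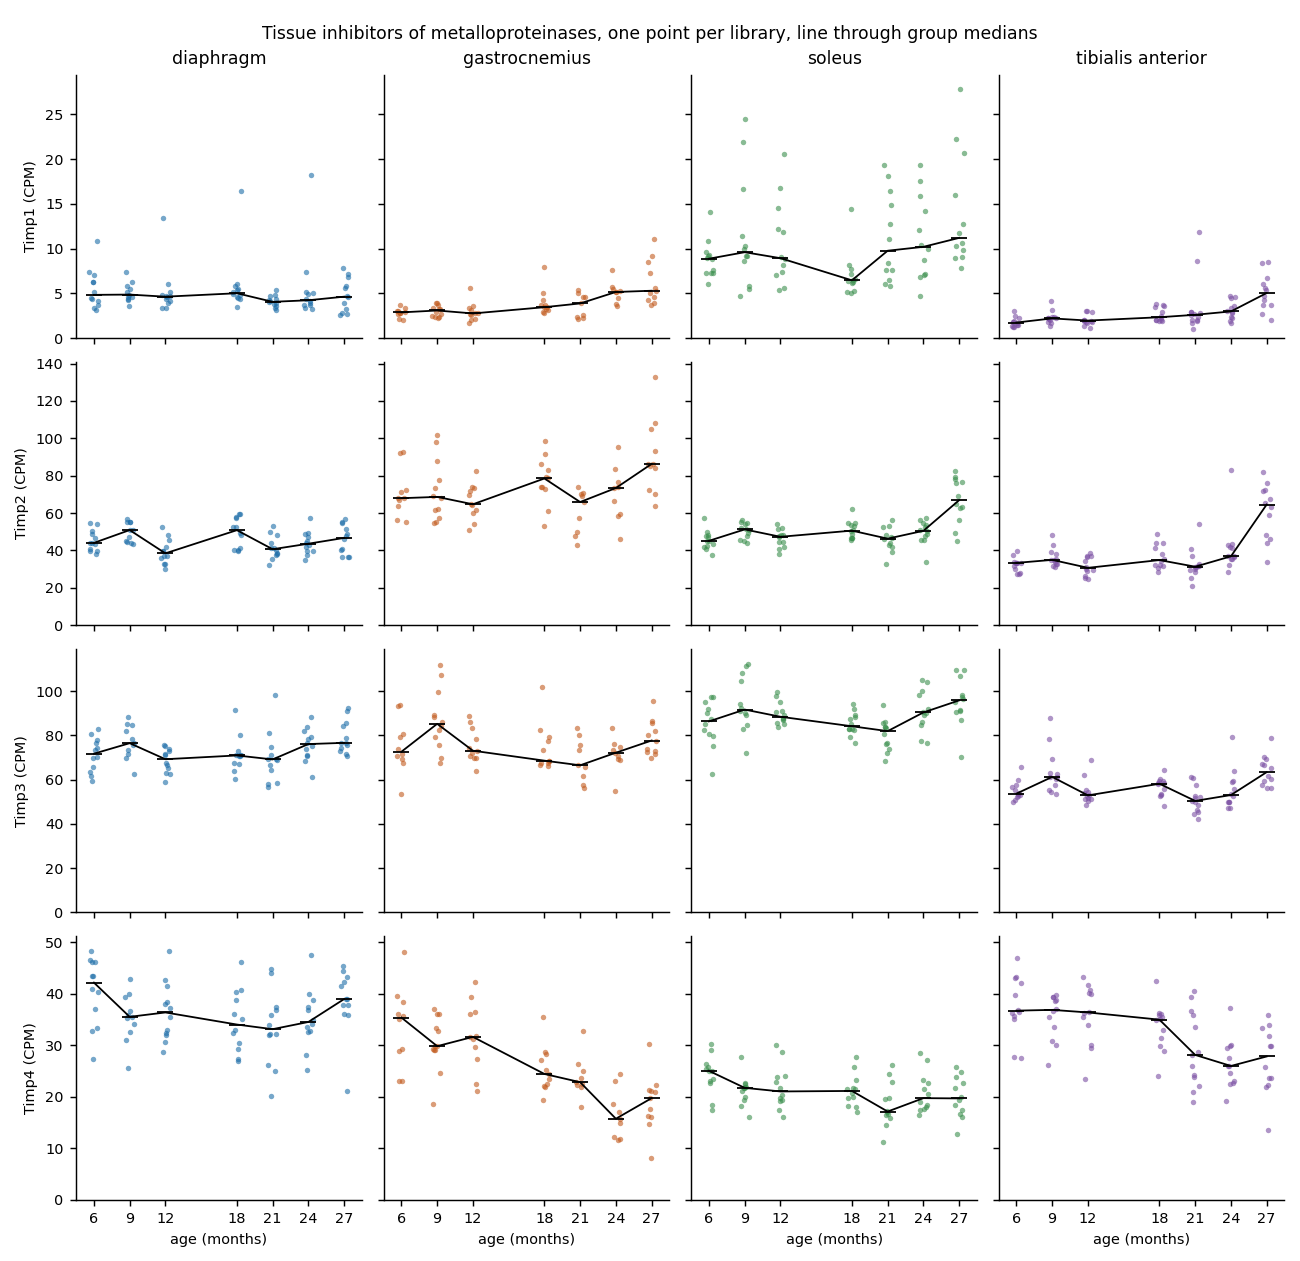
Level of the 4 inhibitors in CPM (vertical axes, linear and shared within a row) against age in months (horizontal axes) in each muscle, with 1 point per library, moved slightly sideways for clarity, and a line through the group medians. Timp2 in the tibialis anterior stays between group medians of 30.7 and 36.8 CPM up to 24 months and is at 64.5 CPM at 27 months, while Timp4 in the gastrocnemius declines from 35.4 to 15.7 CPM at 24 months.

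Timp4 fell in the gastrocnemius. There it had 23.0, 35.4 and 48.1 CPM at 6 months and 8.06, 19.7 and 30.3 CPM at 27 months, and 10 of 11 old libraries lay below the lowest young one. The change was -1.02 ± 0.15 at 24 months (adjusted p = 3.6e-08) and -0.84 ± 0.14 at 27 months (adjusted p = 3.6e-07), so the level at 27 months was 0.559 times that at 6 months. Total-count scaling gave -0.56 at 27 months, which was not called. In the tibialis anterior the medians were 36.7 and 27.8 CPM, with all 12 old libraries below the young median, and the change was -0.49 ± 0.11 (adjusted p = 8.5e-05), or -0.16 with total-count scaling (adjusted p = 0.157). In the soleus the change was -0.29 ± 0.10 (adjusted p = 0.0104), or -0.14 with that scaling (adjusted p = 0.215), and in the diaphragm -0.10 ± 0.10, with an interval from -0.29 to 0.09.

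Timp3, the inhibitor that binds to the extracellular matrix, was called in no muscle at 27 months. Its group medians at 6 and 27 months were 71.7 and 76.6 CPM in the diaphragm, 72.6 and 77.7 CPM in the gastrocnemius, 86.4 and 95.9 CPM in the soleus, and 53.7 and 63.4 CPM in the tibialis anterior. The changes at 27 months were 0.11 ± 0.06, 0.09 ± 0.08, 0.18 ± 0.06 and 0.22 ± 0.07 in that order, with adjusted p = 0.00209 for the tibialis anterior and 0.00934 for the soleus, and all were under 1.5-fold. With total-count scaling they were 0.15, 0.37, 0.32 and 0.54, also under 1.5-fold. The groups overlapped in every muscle.

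Timp1, Timp3 and Timp4 lie inside the synapsin genes Syn1, Syn3 and Syn2 in the RefSeq annotation, Timp1 and Timp4 on the strand opposite to the host gene. Timp2 overlaps Cep295nl on the same strand, where strand cannot separate their reads, and the level of Cep295nl was not examined. The sources used here do not state whether the counting used strand, so reads of overlapping genes may have been shared. Syn1, Syn2 and Syn3 were low, with medians between 0.2986 and 3.221 CPM over the libraries of a muscle, and were not called in any muscle at 27 months. Among them Syn2 in the diaphragm had an adjusted p under 0.05, with a change of 0.42 (adjusted p = 0.00984).

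To describe the course over age, models without a trend, with a linear trend and with a logistic step were compared by the Bayesian information criterion. A call at any age together with a trend was found for 3 of 8 members in the diaphragm (6.71% of all tested genes), 2 of 7 in the gastrocnemius (23.4%), 1 of 7 in the soleus (12.6%) and 2 of 8 in the tibialis anterior (26.7%). The 3 of the diaphragm included Mmp9, which passed the filter through the older groups, so that a rise was favored in advance. In the diaphragm Mmp2 and Mmp14 were linear down, with slopes of -0.026 and -0.021 log2 units a month, and Mmp9 was linear up. Timp1 was linear up in the gastrocnemius and the tibialis anterior, with slopes of 0.049 and 0.055 log2 units a month, and Timp4 was linear down in both, with slopes of -0.046 and -0.026, though it was not called in the tibialis anterior. Mmp14 was linear up in the soleus. Timp2 was late-logistic up in the tibialis anterior and, without a call, in the soleus, with the inflection at 24.75 months in both. Mmp15 was late-logistic down in the gastrocnemius with the inflection at 21.75 months, and Mmp2 late-logistic up in the soleus at 24.75 months, neither with a call.

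Levels of these genes were also compared between the muscles. These contrasts treated libraries of different muscles as independent, and rats that may be shared between muscles were not modeled. In young rats Timp1 was highest in the soleus, followed by the diaphragm, the gastrocnemius and the tibialis anterior, and all 6 pairs of muscles were called. The soleus exceeded the tibialis anterior by 2.34 ± 0.28 (log2, adjusted p = 6.7e-15), and the closest pair was the gastrocnemius and the tibialis anterior (0.74 ± 0.33, adjusted p = 0.0499), a call lost with total-count scaling or without the filter. At 27 months the soleus still exceeded the tibialis anterior by 1.38, and the differences of the diaphragm and the gastrocnemius from the soleus were -1.52 and -1.07, all called. The order of the other three muscles was then not resolved. The diaphragm minus the gastrocnemius was -0.44 ± 0.21 (adjusted p = 0.0546), the diaphragm minus the tibialis anterior was -0.13 (interval -0.57 to 0.30) and the gastrocnemius minus the tibialis anterior was 0.31 (interval -0.13 to 0.74).

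Over all 9 genes and 6 pairs of muscles, 26 of 54 levels were called at 6 months and 22 of 54 at 27 months, beside 33.6% and 27.3% of all genes and pairs. Without Mmp3 and Mmp9 these numbers were 21 and 15 of 42. Mmp2 at 6 months had the order soleus, diaphragm, gastrocnemius and tibialis anterior, in which the diaphragm minus the soleus was -0.32 and the diaphragm minus the gastrocnemius 0.38, both with an adjusted p under 0.05 and below 1.5-fold. At 27 months the diaphragm and the gastrocnemius no longer differed in Mmp2 beyond their spread (-0.02 ± 0.10, interval -0.21 to 0.17). Mmp15 at 6 months had the order gastrocnemius, tibialis anterior, diaphragm and soleus, with the gastrocnemius 1.71 ± 0.08 above the soleus (adjusted p = 2.4e-63). The diaphragm minus the tibialis anterior was -0.64, and -0.19 and not called with total-count scaling. In old rats the difference of the gastrocnemius from the tibialis anterior was 0.11 ± 0.07 (interval -0.03 to 0.26). Mmp14 did not differ beyond the spread at 6 months between the diaphragm, the gastrocnemius and the soleus (-0.09, 0.04 and 0.13 for the 3 differences), although the first was 0.35 with total-count scaling (adjusted p = 0.0165), while at 27 months the diaphragm minus the soleus was -1.14 ± 0.12 and the diaphragm minus the gastrocnemius -0.70 ± 0.12, the latter not called with total-count scaling (-0.55).

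Timp2 in young rats had its highest level in the gastrocnemius, an order that depended on the scaling. The diaphragm minus the gastrocnemius was -0.63 ± 0.10, the gastrocnemius minus the soleus was 0.62, the gastrocnemius exceeded the tibialis anterior by 1.11 ± 0.10, and the diaphragm and the soleus did not differ beyond the spread (interval -0.20 to 0.19). With total-count scaling the first of these differences was -0.19 and the second 0.22 (adjusted p = 0.113 and 0.0618), neither called, and the second was also not called with sample quality weights (0.54). At 27 months the diaphragm had the lowest Timp2, with a difference of -0.95 ± 0.10 from the gastrocnemius (called) and of -0.38 ± 0.10 from the tibialis anterior (below 1.5-fold). Timp4 in young rats did not differ beyond the spread between the diaphragm and the tibialis anterior (0.10 ± 0.11) or between the gastrocnemius and the tibialis anterior (-0.17 ± 0.12), and was lowest in the soleus. With total-count scaling the diaphragm exceeded the tibialis anterior by 0.55 (adjusted p = 2.3e-07), and the soleus minus the tibialis anterior went from -0.63 to -0.21 and was not called. At 27 months the diaphragm lay 1.05 ± 0.12 above the gastrocnemius and 0.97 ± 0.11 above the soleus (adjusted p = 2.8e-16 and 3.0e-15), and the last 2 muscles differed by -0.08 ± 0.12. Timp3 had its only called difference between the soleus and the tibialis anterior at 6 months (0.63 ± 0.07), while with total-count scaling the diaphragm minus the tibialis anterior (0.82) and the gastrocnemius minus the soleus (-0.59) at 6 months and the soleus minus the tibialis anterior at 27 months (0.82) were called too.

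Mmp9 and Mmp3 lay near the filter, Mmp9 passing it mainly in the diaphragm, and only their summed counts are set side by side between muscles. Over the libraries of 27 months Mmp9 had 265 counts in the diaphragm, 65 in the tibialis anterior, 58 in the soleus and 33 in the gastrocnemius. Mmp3 had 10 counts over the diaphragms of 6 months and 21 over those of 27 months, beside 66 and 66 over the soleus and 71 and 73 over the tibialis anterior libraries.

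**Figure D4:**
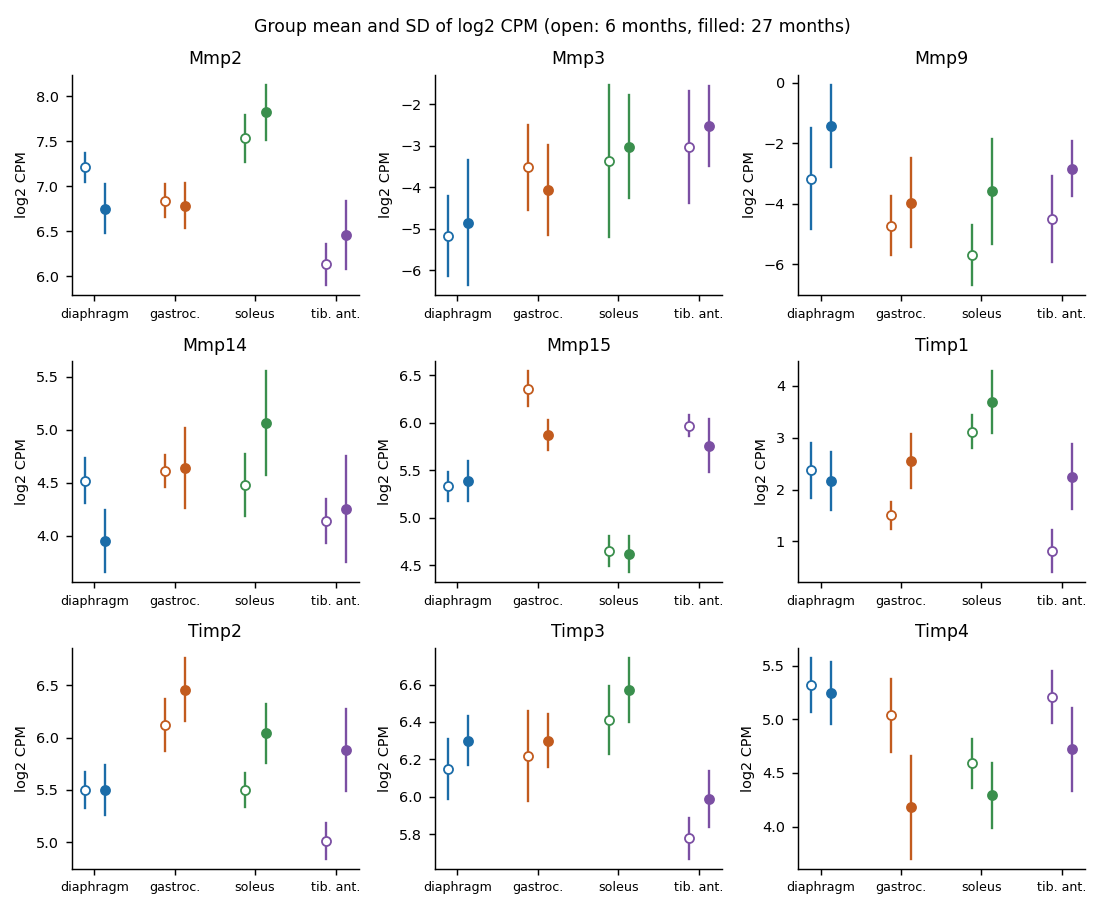
Mean log2 CPM (points) with SD (lines) of each gene in the 4 muscles at 6 months (open) and 27 months (filled), with 10 to 12 libraries a group and a separate vertical scale for each gene. The Timp1 means of the 3 muscles other than the soleus lie close together at 27 months, and those of Mmp14 spread apart.

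The changes themselves were compared between muscles with interaction contrasts, and 11 of 54 combinations of gene and muscle pair were called, none of them in Mmp3 or Mmp9, beside 15.2% of all genes and pairs. The diaphragm was 1 of the 2 muscles in 10 of them. Over all genes, the called differences numbered 2760, 1516 and 2590 for the diaphragm with the gastrocnemius, the soleus and the tibialis anterior. For the other pairs they numbered 1848 (gastrocnemius and soleus), 936 (gastrocnemius and tibialis anterior) and 2022 (soleus and tibialis anterior). Calls were thus frequent with the diaphragm over all genes too. For Mmp14 the change in the diaphragm minus that in the soleus was -1.18 ± 0.17 (adjusted p = 5.7e-10). The same difference was -0.72 ± 0.18 against the tibialis anterior and -0.62 ± 0.18 against the gastrocnemius, where the call was lost with sample quality weights (-0.58). For Timp1 the diaphragm minus the tibialis anterior was -1.69 ± 0.37 (adjusted p = 2.9e-05), and it was -1.26 against the gastrocnemius and -0.74 against the soleus. For Mmp2 the diaphragm minus the tibialis anterior was -0.79 ± 0.13 and minus the soleus -0.75 ± 0.14, and for Timp2 the diaphragm minus the tibialis anterior was -0.87 ± 0.14. For Timp4 the diaphragm exceeded the gastrocnemius by 0.78 ± 0.17, which was not called with total-count scaling (0.49). The remaining called difference was in Timp1, where the soleus minus the tibialis anterior was -0.96 ± 0.34. With Bonferroni adjustment 5 of the 11 differences were called. Like the levels, these contrasts treated libraries of different muscles as independent.

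Other genes of the system were examined as lists. At 27 months 3.27% of all tested genes were called higher and 4.25% lower for the diaphragm, 15.1% and 7.76% for the gastrocnemius, 9.21% and 5.78% for the soleus, and 17.2% and 10.4% for the tibialis anterior. Of 16 further matrix metalloproteinases in the tables, 7 or 8 were tested in a muscle. Mmp11, a metalloproteinase of stromal cells, was called higher at 27 months in all 4 muscles, with log2 changes of 1.20 for the tibialis anterior, 1.18 for the gastrocnemius and 0.77 for both the soleus and the diaphragm. Mmp10 was called higher in the gastrocnemius (3.70 ± 0.60), Mmp19 and Mmp23 higher in the tibialis anterior (0.65 and 0.68), and Mmp16 lower in the soleus (-1.26 ± 0.17).

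Of 16 genes for the activation and control of these enzymes, 5 were called higher in the gastrocnemius and 9 in the tibialis anterior, each beside 1 lower, and 2 were called higher in the diaphragm and 2 in the soleus. A2m, a broad protease inhibitor of plasma, rose in all muscles by 1.77, 3.15, 2.12 and 3.26 in the order diaphragm, gastrocnemius, soleus and tibialis anterior. Its changes were larger in the muscles in which Timp1 was called, and this order was not tested.

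Of 13 ADAM and ADAMTS proteases, relatives with a similar catalytic domain, 0, 2, 1 and 1 were called higher and 1, 1, 0 and 2 lower, in the same order of muscles. Adam19, a membrane-bound relative, was called higher in the gastrocnemius (2.31), the soleus (2.37) and the tibialis anterior (2.75), with 0.21 ± 0.13 in the diaphragm. Adamts4, which cuts proteoglycans, was called lower in the diaphragm (-1.16), the gastrocnemius (-0.81) and the tibialis anterior (-0.87). Of 16 matrix proteins that serve as substrates, 4, 3, 3 and 0 were called lower and 0, 0, 0 and 1 higher. The genes of the type I collagen chains, Col1a1 and Col1a2, were called lower in the diaphragm (-1.51 and -1.13), the gastrocnemius (-1.89 and -1.56) and the soleus (-1.17 and -0.98), and had -0.55 and -0.37 in the tibialis anterior.

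Markers of other cell types moved with several of these changes. In bulk muscle, fewer cells of a type and less RNA per cell cannot be told apart. In the diaphragm 3 of 9 tested fibroblast markers were called lower and none higher, and the summed level of 10 markers was 2651 to 3699 CPM at 6 months and 1474 to 2357 CPM at 27 months, with Gsn, Col1a1 and Dcn the most abundant. The sum was also lower in the old gastrocnemius (2726 to 4164 and 1844 to 3438 CPM, medians 3001 and 2077 CPM). Mmp2 and Mmp14 changed there by -0.05 and 0.03. The summed level was 2406 to 5000 and 2722 to 4072 CPM for the soleus, and 1117 to 2027 and 1062 to 2098 CPM for the tibialis anterior. Such a sum mostly reflects the most abundant markers. Taken marker by marker, the median log2 change of the 9 tested was positive for each limb muscle. It was 0.30 (tibialis anterior), 0.20 (soleus) and 0.19 (gastrocnemius), while the diaphragm had a median of -0.47. Fibroblast markers called higher, then lower, were 2 and 1 in the gastrocnemius, 0 and 1 for the soleus, and 1 and 0 for the tibialis anterior, and Tcf21 was at 0 in all tibialis anterior libraries of both ages. The part of these cells in the changes of Mmp2 and Mmp14 was not tested.

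All 10 macrophage markers were called higher in the gastrocnemius and in the tibialis anterior, 2 of 10 in the soleus and 1 of 10 in the diaphragm. Their summed level, to which Lyz2, Csf1r and Mrc1 contributed most, was 78.8 to 130 CPM in the young and 159 to 353 CPM in the old tibialis anterior, and 169 to 272 and 291 to 524 CPM in the gastrocnemius, so that the groups did not overlap. In the diaphragm it was 218 to 433 and 342 to 779 CPM, and in the soleus 260 to 497 and 425 to 589 CPM. Timp1 was called higher in the same 2 muscles in which all macrophage markers were, and the part of macrophages in it was not tested. Neutrophil markers called higher were 2 of 3 tested in the gastrocnemius, 1 of 5 in the soleus and 2 of 3 in the tibialis anterior, and Lcn2, Csf3r and Mpo were the most abundant of them.

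Of 10 endothelial markers, led by Flt1, Kdr and Vwf, 2 were called lower in the gastrocnemius, 1 in the soleus, 2 in the tibialis anterior and 0 in the diaphragm. Their summed level at 6 and 27 months was 578 to 674 and 330 to 511 CPM in the gastrocnemius, 731 to 846 and 503 to 750 CPM in the tibialis anterior, and 654 to 753 and 484 to 629 CPM in the soleus. In the diaphragm it was 900 to 1020 and 719 to 887 CPM. Timp4 changed by -0.84 in the gastrocnemius, the only muscle in which it was called at 27 months. Its changes were -0.49 in the tibialis anterior, -0.29 in the soleus and -0.10 in the diaphragm. The part of endothelial cells in the Timp4 changes was not tested. Adipocyte markers (Adipoq, Fabp4 and Cfd the most abundant) called higher were 6 of 8 in each limb muscle, and 1 of 8 was called lower in the diaphragm. Of 5 red cell markers, 1 was called higher in each of the soleus and the tibialis anterior and 0 in the other muscles. Of 8 muscle fibre markers, 3 were called lower in the tibialis anterior, 2 lower in the gastrocnemius, 2 higher in the soleus and 1 higher in the diaphragm. Their summed level had a lower median at 27 than at 6 months in each limb muscle. The medians at 6 and 27 months were 208325 and 149940 CPM in the gastrocnemius and 224414 and 144600 CPM in the tibialis anterior. They were 102738 and 78682 CPM in the soleus, and 111213 and 117500 CPM in the diaphragm. Marker by marker, the median log2 change in the soleus was -0.21.

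Libraries of the same muscle and age also differed from each other in these genes. After group means were removed, the log2 CPM of Mmp2, Mmp14 and Timp2 varied together over 325 libraries, with Pearson's r of 0.78 for Mmp2 and Mmp14, 0.74 for Mmp2 and Timp2, and 0.76 for Mmp14 and Timp2. The same correlations were between 0.62 and 0.86 within each muscle. These 3 genes followed the mean level of the fibroblast markers (r of 0.83, 0.76 and 0.76) and, less closely, that of the macrophage markers (0.56, 0.56 and 0.60). Timp1 had r = 0.64 with the macrophage and 0.49 with the fibroblast markers, and Timp4 was correlated with the endothelial markers (0.41) and inversely with the fibroblast markers (-0.43). Mmp15 and Timp3 had no r above 0.38 with another of the genes in this comparison. The libraries share their preparation and scaling, and these values are descriptions.

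**Figure D5:**
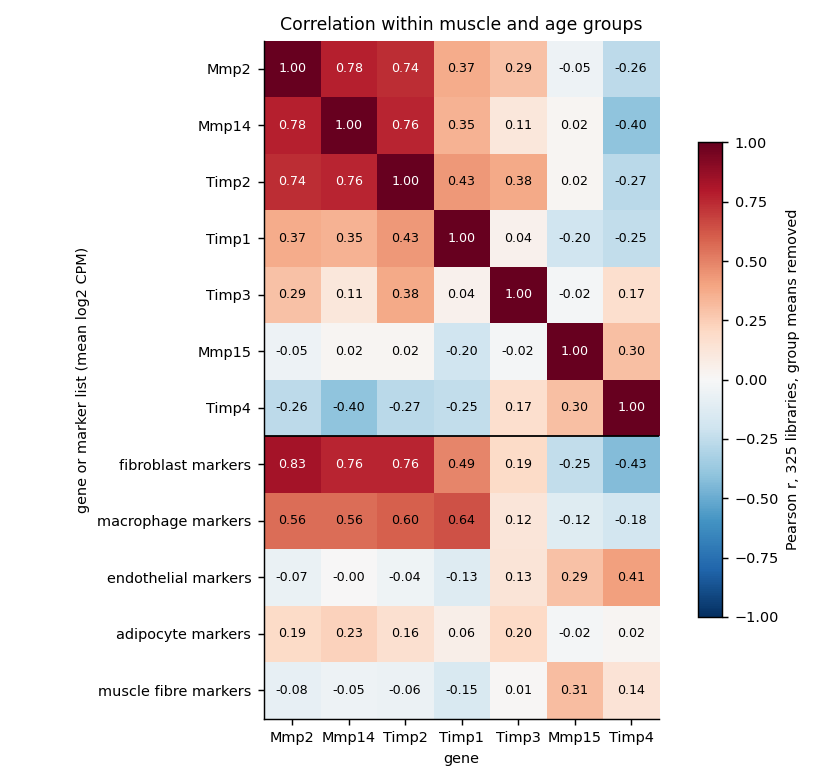
Pearson's r between genes, and between genes and the mean log2 CPM of marker lists, over 325 libraries after the mean of each muscle and age group was removed (color scale from -1 to 1, with r printed in each cell). Mmp2, Mmp14 and Timp2 form a block with r from 0.74 to 0.78, and Timp4 has negative values with all of the genes but Mmp15 and Timp3.

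Over the 28 group means of log2 CPM, which share libraries by muscle, the genes most like each member were found by Pearson's r. For Mmp2 they were Ppic (0.98), Clec11a (0.97) and Fkbp10 (0.97), and for Mmp14 Thbs4 (0.87), Igfbp6 (0.85) and Sfrp4 (0.84). For Mmp15 they were Mprip, Chchd2 and Pgm1 (0.99 each). For Timp1 they were Sertad4 (0.98) and Prkar1b (0.97), and for Timp2 Gins2 (0.94), Csf2ra (0.94) and Il4r (0.93). For Timp3 they were Cercam, Axl and Pnp (0.96 each), and for Timp4 Kif26a (0.96), Cdh23 (0.95) and Dock6 (0.95). Differences between muscles weigh heavily in these values.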

How the data were processed

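RNA of 4 muscles was sequenced as strand-specific, ribosome-depleted read pairs. The authors deposited raw read counts per gene for each library, made with the ArrayStudio pipeline (its version was not given in the sources used here) with the rat reference that the study names B6.0 and an in-house gene model based on RefSeq, without normalization. Lines of 1 symbol were summed.

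Groups were read from the sample titles. Within a muscle, low genes were removed by filterByExpr of edgeR 4.0.16, with its defaults of about 10 counts in as many libraries as the smallest age group and of 15 counts in total. Scaling used edgeR's TMM factors. A voom fit to the 7 ages (limma 3.58.1 under R 4.3.3) gave the changes, since the study also used limma. P-values are two-sided and adjusted by Benjamini and Hochberg over all genes of a comparison. Libraries of 1 muscle and age come from separate rats according to the study, though the labels name no animals. Interactions and levels between muscles came from 1 fit of all 28 groups. Levels are CPM scaled by TMM over all libraries, and log2 CPM has a prior count of 0.5. Values after ± are SE, and 95% intervals are normal. Levels were not compared between genes, since transcript lengths were not used. Trend models followed the study, with a margin of 6 over the model without a trend and of 2 for the logistic step, and steps after 21 months are late.

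All 9 genes are named, with the 3 genes of most similar group means for each of the 7 genes tested in all muscles. In other lists, genes called one way in at least 3 muscles are named, other metalloproteinases called in any muscle, and the most abundant or absent markers. Some genes that these rules select are not reported here. The members, lists and rules were chosen with earlier results of these data known. Tests were checked on simulated counts. Alternatives were size factors by relative log expression (RLE), total-count scaling, no filter, edgeR's quasi-likelihood test, DESeq2 1.42.0, sample quality weights, Bonferroni adjustment, a 2-fold threshold, a replicate block, other trend settings and leaving out libraries.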

Additional observations from a re-analysis of the deposited data

Results flagged for a closer look

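The change from 6 to 27 months differed between muscles in 11 combinations of gene and muscle pair by the interaction contrast, given as the log2 change in the first muscle minus that in the second. For Mmp14 the difference was -0.62 between the diaphragm and the gastrocnemius, -1.18 between the diaphragm and the soleus and -0.72 between the diaphragm and the tibialis anterior. For Mmp2 it was -0.75 between the diaphragm and the soleus and -0.79 between the diaphragm and the tibialis anterior. For Timp1 it was -1.26, -0.74 and -1.69 between the diaphragm and the gastrocnemius, soleus and tibialis anterior, and -0.96 between the soleus and the tibialis anterior. For Timp2 it was -0.87 between the diaphragm and the tibialis anterior, and for Timp4 0.78 between the diaphragm and the gastrocnemius.

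In groups of at most 10 libraries, 2 single values stood apart from the others of their group by Dixon's criterion. Replicate 2 of the gastrocnemius at 6 months had no Mmp3 count (-5.94 log2 CPM, the nearest other library at -4.27), and replicate 2 of the gastrocnemius at 24 months had the lowest Timp3 (5.78, the nearest other at 6.11). The criterion was applied to 27 groups of 1 gene each, and chance alone flags about 1 in 20.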

How the results depend on the processing

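Of 95 member values compared under the alternatives other than leaving out a library, 731 comparisons kept their direction and their side of the threshold, 81 lost a call, 7 gained one and 4 changed sign. Over 93 fits that each left out 1 library of 6 or 27 months, 666 kept both, 11 lost a call, 13 gained one and 9 changed sign.
The number of members called at 27 months was 2 in the diaphragm and became 1 with Bonferroni adjustment, with a 2-fold threshold and with sample quality weights, and 1 to 2 when 1 library was left out (1 without replicate 4 of 27 months or without replicate 0 or 10 of 6 months). In the diaphragm the 3 members called at any age became 1 with a 2-fold threshold or with sample quality weights. In the gastrocnemius and the tibialis anterior the 2 members called at 27 months became 1 with a 2-fold threshold, as did the 2 called at any age in the tibialis anterior. In the soleus the 1 member called at 27 months or at any age became 0 with Bonferroni adjustment or a 2-fold threshold, 3 with total-count scaling, and 2 without the filter, with edgeR's test or with DESeq2, and at 27 months 0 to 3 when 1 library was left out. The 1 member of the soleus with a call and a trend became 2 with total-count scaling and 0 with Bonferroni adjustment. The 11 differences in change between muscles became 5 with Bonferroni adjustment and 3 with a 2-fold threshold, and the 26 differences in level at 6 months became 14 with a 2-fold threshold. Stricter thresholds lower counts by construction, and for the others the cause was not tested.
Signs turned at 27 months with total-count scaling in Mmp2 of the gastrocnemius (0.23), Mmp15 of the soleus (0.13) and of the tibialis anterior (0.12) and Timp2 of the diaphragm (0.0031). Leaving out a library turned Mmp15 in the diaphragm (-0.01, -0.0027, -0.0037 and -0.0059, range up to 0.05), Mmp15 in the soleus (0.0066 and 0.00094, range from -0.05), Mmp14 in the gastrocnemius (-0.03 and -0.02, range up to 0.09) and Timp2 in the diaphragm (0.0021, range from -0.06). Compared with TMM, total-count scaling shifted the median gene upward between 6 and 27 months, by 0.32 for the tibialis anterior, 0.28 for the gastrocnemius, 0.15 for the soleus and 0.04 for the diaphragm.
Replicate numbers were shared between groups, but same-numbered libraries of 27 and 6 months did not deviate together (median r between 0.00 and 0.04 by muscle). Between muscles at 27 months the median r was 0.14 for the diaphragm and the tibialis anterior and 0.15 for the soleus and the tibialis anterior, with 9 of 12 numbers over 0.1 in each and with 8 and 6 of 12 libraries correlating best with their own number, a hint from the data that these numbers were shared. For the diaphragm and the soleus it was 0.07, with 4 of 12 libraries correlating best with their own number, and pairs with the gastrocnemius had medians from -0.02 to 0.0. At 6 months 6 of 12 did so for the diaphragm and the tibialis anterior. The number was 4 of 12 each for the soleus and the tibialis anterior and for the diaphragm and the soleus. Pairs with the gastrocnemius had 0 to 2 such libraries at either age. The fit without the block was kept because not all numbers exceeded 0.1, a rule that does not exclude shared rats. The contrasts between muscles thus treated libraries as independent, and their SE and p-values leave out any such pairing. The block gave each replicate number 1 effect shared by all ages. It therefore could not model a rat shared between muscles at 1 age, and its results do not bear on such a pairing. With the replicate block the numbers of members called at 27 months were again 2, 2, 1 and 2, the number called at any age in the gastrocnemius went from 2 to 3 and that of level differences at 6 months from 26 to 25, through Mmp9 between the diaphragm and the gastrocnemius at 6 months (1.39, adjusted p = 0.0533).
Depth limited Mmp3 and Mmp9 most. The p-values judge a difference between groups against the spread between libraries within groups, estimated over all groups of a fit.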

Other observations

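Some correlations within muscle and age groups differed in size from muscle to muscle. Mmp15 and Timp4 had r = 0.50 over the gastrocnemius libraries, 0.34 in the diaphragm, 0.31 in the tibialis anterior and 0.00 in the soleus. Mmp15 and Timp2 had r = 0.45 in the gastrocnemius and -0.27 in the tibialis anterior. Timp2 and Timp3 had r = 0.53 in the gastrocnemius, 0.52 in the tibialis anterior, 0.20 in the diaphragm and 0.12 in the soleus. Mmp14 and Timp4 had negative values in all 4 muscles, from -0.27 in the gastrocnemius to -0.53 in the soleus. The differences between muscles in these values were not tested.

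Mmp9 levels varied widely among old diaphragms. Replicate 6 at 27 months had 3.15 CPM and replicate 2 had 1.12 CPM, and the median of the 12 was 0.224 CPM. In the 18-month group the highest library had 1.21 CPM beside a median of 0.266 CPM, and in the 24-month group 1.60 CPM beside 0.316 CPM.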
